A study of Homo sapiens with 9 samples.

Results

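The 10 genes described here encode amino acid transporters of the plasma membrane, measured on 9 expression arrays of the human neuroblastoma line SK-N-AS: SLC7A5, SLC3A2, SLC43A1, SLC7A1, SLC7A2, SLC38A1, SLC38A2, SLC1A4, SLC1A5 and SLC6A9. The genes were taken by name, with all of their probe sets, and with earlier results of these data known. They came to 25 of the 54675 probe sets on the array and to 10 of 19775 genes with a probe set of their own. Full-length NRSF was over-expressed from RE-EX1 and a truncated NRSF from HZ4, and other cells were untreated. These are called the RE-EX1, HZ4 and untreated series. Each had 1 array at 0 h, 1 at 24 h and 1 at 48 h, and the 0 h arrays of both construct series were labelled as baseline controls. All cells grew in the same serum-containing medium, to which nonessential amino acids and L-glutamine had been added. NRSF, the product of REST, is a transcriptional repressor of neuronal genes. The series description speaks of triplicates in several batches, but no label gives a batch or replicate, so a p-value here covers the spread among these 9 arrays, which may be technical. No label names the promoter of either construct or an empty-vector control.

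Amino acid transporters of the solute carrier families set which amino acids a cell can take up. SLC7A5 (LAT1) is a transport subunit for leucine and other large neutral amino acids that reaches the membrane only as a disulfide-linked partner of SLC3A2, the heavy chain CD98, and it takes up its substrates in exchange for amino acids such as glutamine. Glutamine is brought in by sodium-coupled carriers such as SLC38A1, SLC38A2 and SLC1A5, and arginine and lysine by the cationic carriers SLC7A1 and SLC7A2. Several of these genes are known targets of ATF4, the transcription factor made when amino acids run short or proteins misfold, which binds C/EBP-ATF response elements. MYC proteins, which drive many neuroblastomas, bind the E-box and are known to raise SLC7A5 and SLC1A5.

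The sequence around each member's start site was searched for these elements, because they are the known routes to these genes. RefSeq windows of 300 bases (250 before and 50 after a start site, build GRCh38.p14) were matched by symbol for 9 of the 10 genes, which gave 16 windows. SLC7A2 was not matched. The C/EBP-ATF element was written as TGATGNAAN, the E-box as CACGTG and the left part of the NRSF site as TTCAGCACC; its right part was searched too, and both strands were read. The C/EBP-ATF letters stood in 5 of the 16 windows, 1 in each of 5 genes, and in 3.61% of all 35116 windows. They are printed 5′ to 3′ on the strand of the gene, with the matched letters in capitals.
SLC3A2, chr11:62881725-62881748, + strand: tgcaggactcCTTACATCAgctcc
SLC7A1, chr13:29595663-29595691, - strand: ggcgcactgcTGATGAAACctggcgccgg
SLC38A1, chr12:46266502-46266530, - strand: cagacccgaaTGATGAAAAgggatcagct
SLC1A4, chr2:64989381-64989409, + strand: gcggctcccgTTTGCATCAtctccagccg
SLC1A5, chr19:46784893-46784921, - strand: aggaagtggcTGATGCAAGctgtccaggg
In SLC3A2 and SLC1A4 the element lay on the strand opposite to the gene, so its complement is what is capitalised. The match began at base 37 after the start site in SLC3A2 and at base 8 in SLC7A1. It began 4, 8 and 97 bases before the start in SLC38A1, SLC1A4 and SLC1A5. Each position is counted from the start site of its own window. Of these 5 windows only that of SLC7A1 lay at the outermost start of its gene. Counted from the outermost window, the match was in window 2 of SLC38A1 and SLC1A4 and in window 3 of SLC3A2 and SLC1A5. Those start sites lie inside the gene.

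The E-box letters stood in 3 of the 16 windows and in 7.26% of all windows. They are shown for the genes in which they lay before the start site, with the E-box in capitals; for SLC7A5, the member with the largest change, all 250 bases before the start are given.
SLC7A5, chr16:87869508-87869757, - strand: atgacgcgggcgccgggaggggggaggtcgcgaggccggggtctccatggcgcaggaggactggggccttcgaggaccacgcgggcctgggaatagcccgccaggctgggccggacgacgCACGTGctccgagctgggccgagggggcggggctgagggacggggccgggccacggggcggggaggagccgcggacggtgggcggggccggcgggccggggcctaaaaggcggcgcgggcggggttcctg
SLC43A1, chr11:57515779-57515844, - strand: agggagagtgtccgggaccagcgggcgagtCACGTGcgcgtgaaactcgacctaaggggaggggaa
SLC1A5, chr19:46787328-46787353, - strand: cgggagtggtCACGTGgacaggacgg
The E-boxes of SLC7A5 and SLC43A1 lay before the outermost start of the gene. That of SLC1A5 lay in window 2, before a start inside the gene, and its C/EBP-ATF match lay in another window. The window of SLC7A5 was 80.3% G and C, against a median of 58.7% over all windows. SLC38A2, whose later change is described below for all of its probe sets, had none of the 4 sets of letters in its window. Its 250 bases before the start are given for comparison with SLC7A5.
SLC38A2, chr12:46372774-46373023, - strand: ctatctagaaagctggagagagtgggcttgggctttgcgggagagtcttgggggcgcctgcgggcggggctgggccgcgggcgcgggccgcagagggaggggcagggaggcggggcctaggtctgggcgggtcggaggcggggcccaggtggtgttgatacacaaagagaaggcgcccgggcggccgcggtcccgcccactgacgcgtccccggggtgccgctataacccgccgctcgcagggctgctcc
Neither part of the NRSF site stood in any of the 16 windows, against 0.376% and 0.863% of all windows. A match, or none, is a description of these letters only.

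The arrays had been scaled to 1 mean, and their median signals lay between 30.87 and 42.67. The HZ4 24 h array stood apart: its median correlation with the other arrays was 0.909, against 0.922 to 0.931 for the rest, and its dimmest genes read higher. Every call of a transporter gene given here was also made without that array, and those values stand beside the calls. The 3'/5' ratio of ACTB, a measure of RNA integrity, ran from 2.25 to 4.19 and did not order the arrays by time. REST signal was 162 to 177.2 at 0 h and 268.3 to 444.7 at 24 h, and its highest value was in the untreated 24 h array. It therefore gave no check of the construct labels, and whether its probe set reads the constructs is not known here. GATA3, a sympathoadrenal marker, read 1346 to 1912 and VIM, a mesenchymal marker, 9354 to 14403. GATA3 was the brightest of the sympathoadrenal markers. RET read 160.8 to 1162 and PHOX2A 72.2 to 145.9, whereas the catecholamine enzymes TH and DBH were too dim to be kept. These markers were chosen from the marker lists after their values were seen.

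Genes were tested in limma on log2 signals with Benjamini-Hochberg adjustment over the 13799 genes whose brightest probe set was above the filter on dim genes, and a gene is called when its adjusted p is under 0.05. Of the 10 transporter genes 9 were kept; SLC6A9 was too dim. Time was tested over the 3 series together. Because the genes were chosen with earlier results known, their counts are a description beside the shares of all genes. At 24 h over 0 h, 2 of the 9 genes rose and 0 fell, where 16.2% of all genes were called, 8.04% higher and 8.2% lower. At 48 h over 0 h, 4 rose and 0 fell, where 8.38% of all genes were called, 4.5% higher and 3.88% lower. At 48 h over 24 h, 1 rose and 0 fell, where 3.5% of all genes were called, 1.72% higher and 1.78% lower. The median change of the 9 was 0.41, 0.54 and -0.15 on the log2 scale in these comparisons, against -0.03, -0.01 and 0.01 over all genes. These counts moved when single arrays were left out. The 2 calls at 24 h became 3 without the untreated 24 h array and 4 without the untreated 0 h array or the untreated series. The 4 calls at 48 h over 0 h became 2 without the RE-EX1 array of 0 h or 48 h, the untreated 48 h array or the RE-EX1 series, 1 without the HZ4 48 h array, the HZ4 series or the untreated series, and 0 without the variance trend. The 1 call between 24 and 48 h was lost without the HZ4 48 h, untreated 24 h or untreated 48 h array, and without the HZ4 or the untreated series.

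**Figure D1:**
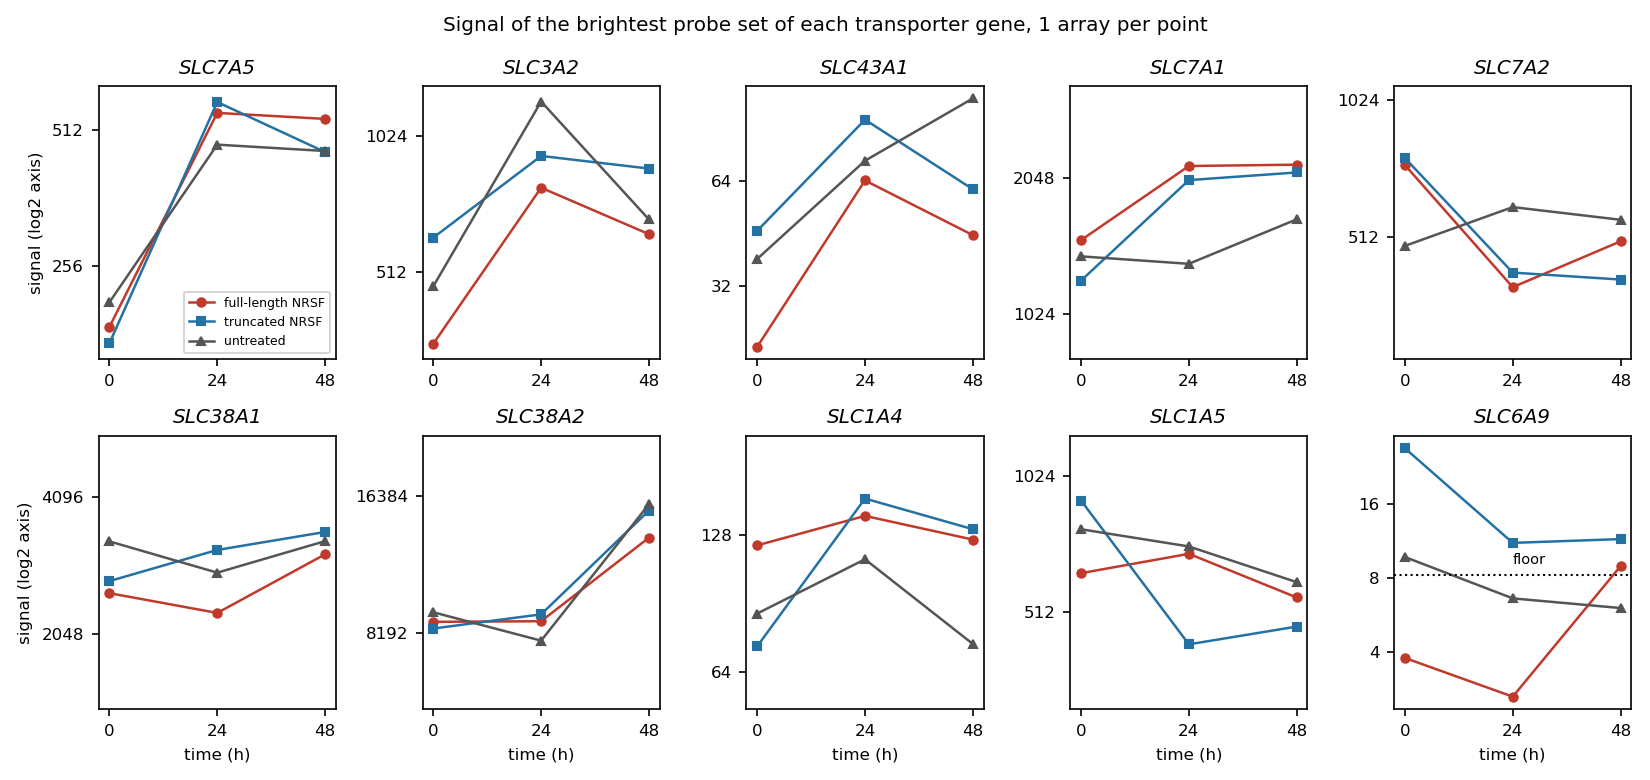
Signal (log2 axis, each panel with its own range) against time in h for the brightest probe set of each of the 10 genes, 1 point per array and 1 line per series. All 3 lines of SLC7A5 and SLC3A2 climb from 0 to 24 h, those of SLC38A2 climb from 24 to 48 h, and SLC6A9 lies around the floor.

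**Figure D2:**
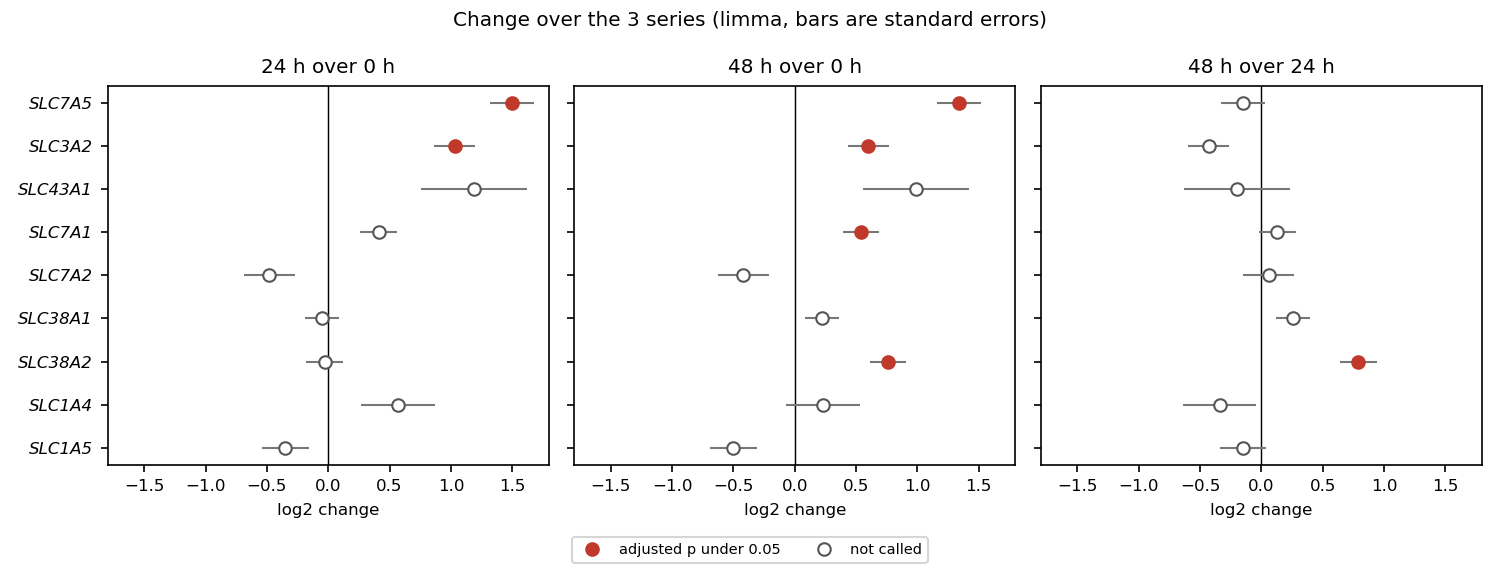
Log2 change with its standard error for the 9 genes kept, in 3 time comparisons over 3 series of 1 array per time; filled points have an adjusted p under 0.05. SLC7A5 and SLC3A2 are filled at 24 h, SLC7A1 and SLC38A2 join them at 48 h, and only SLC38A2 is filled between 24 and 48 h.

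SLC7A5, the transport subunit of the LAT1 and CD98 pair, rose most of the 9 genes and stayed high. Its signal at 0 h was 188.1 in RE-EX1, 173.2 in HZ4 and 213.2 in untreated cells. At 24 h it was 557.1, 588.6 and 474.2 in the same order, and at 48 h 540.4, 456.8 and 459.2. Every later array lay above every 0 h array, and the untreated series rose with the others. The change was 1.5 ± 0.18 (SE) on the log2 scale at 24 h, or 2.82-fold (limma, adjusted p = 3.5e-05), and 1.34 at 48 h, or 2.54-fold (adjusted p = 0.00028). From 24 to 48 h it changed by -0.15 (adjusted p = 0.714). Without the HZ4 24 h array the changes were 1.37 at 24 h (adjusted p = 0.00048) and 1.34 at 48 h (adjusted p = 0.00022). The gene lies at chr16:87830023-87869507 (GRCh38.p14) and has 1 probe set, 201195_s_at, whose suffix marks probes shared by several transcripts, so related copies of SLC7A5 cannot be told apart from it.

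SLC3A2, the heavy chain that carries SLC7A5 to the membrane, rose at 24 h and was still above its start at 48 h. At 0 h it read 356.5 in RE-EX1, 610.7 in HZ4 and 477.2 in untreated cells. At 24 h it read 786.7, 924.2 and 1218, and at 48 h 621.5, 866.9 and 669.6. The 3 arrays at 24 h and the 3 at 48 h all lay above the 0 h arrays, by a small margin at 48 h, where the RE-EX1 series (621.5) was just above the HZ4 0 h array (610.7). The change was 1.03 ± 0.17 at 24 h, or 2.04-fold (limma, adjusted p = 0.00067; 1.22 without the HZ4 24 h array, adjusted p = 0.00041). At 48 h it was 0.60, or 1.51-fold (adjusted p = 0.0389; 0.60 without the HZ4 24 h array, adjusted p = 0.0202). From 24 to 48 h it changed by -0.43 ± 0.17 and was not called (adjusted p = 0.186). That 48 h call was lost without any one of 6 arrays: the RE-EX1 array of 0 h (adjusted p = 0.191), 24 h (0.0502) or 48 h (0.169), the HZ4 48 h array (0.183), and the untreated array of 0 h (0.131) or 48 h (0.0544). The gene lies at chr11:62856109-62888860 and is read by 200924_s_at.

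SLC43A1 (LAT3), which carries large neutral amino acids without a heavy chain, read higher at 24 h in each series but did not pass the test. At 0 h its signals were 21.4, 46 and 38.2 in the RE-EX1, HZ4 and untreated series, at 24 h 64.1, 95.7 and 73, and at 48 h 44.7, 60.5 and 110.1. The 24 h arrays did not overlap the 0 h arrays, while at 48 h the RE-EX1 array fell among them. The change was 1.19 ± 0.43 at 24 h (limma, adjusted p = 0.0714) and 0.99 at 48 h (adjusted p = 0.174). The gene is at chr11:57484534-57515702. Over all 9 genes, the 24 h arrays lay wholly above the 0 h arrays in 3 (SLC7A5, SLC3A2 and SLC43A1), where 14.3% of all genes did so. The 48 h arrays lay wholly above them in 4 (SLC7A5, SLC3A2, SLC7A1 and SLC38A2), against 13.6% of all genes.

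SLC7A1 (CAT-1) is the widely expressed carrier of arginine, lysine and ornithine, and its brightest probe set, 212295_s_at, rose by 48 h. Its signals at 0 h were 1492 in RE-EX1, 1215 in HZ4 and 1374 in untreated cells. At 24 h they were 2173, 2023 and 1323, and at 48 h 2188, 2103 and 1658. Both construct series were above every 0 h array at both times, and the untreated series only at 48 h. The change was 0.41 ± 0.15 at 24 h (limma, adjusted p = 0.0838) and 0.54 at 48 h, or 1.45-fold (adjusted p = 0.0385; 0.0305 without the HZ4 24 h array).

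The other probe sets of SLC7A1 did not follow. At 48 h over 0 h they changed by 0.13 (212290_at), 0.34 (212292_at) and -0.09 (206566_at), and none was called. The remaining set, 215979_s_at, was too dim. Over the 9 arrays the correlation between pairs of the 5 ran from -0.3 to 0.57, as a description of arrays that share series and time. The 48 h call was lost with the brightest set without an _s_at or _x_at suffix (0.13, adjusted p = 0.719) and with the mean of all sets (0.35, adjusted p = 0.461). It was also lost without the RE-EX1 array of 0 h (adjusted p = 0.169) or 48 h (0.0965), the HZ4 array of 0 h (0.178) or 48 h (0.179), or the untreated 48 h array (0.124). Its position is chr13:29509414-29595688.

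SLC7A2 (CAT-2), an inducible carrier of the same cationic amino acids, went the other way in the cells with a construct. Its brightest probe set, 225516_at, read 736.1, 396.2 and 499.9 at 0, 24 and 48 h in the RE-EX1 series. In the HZ4 series it read 762.7, 426.6 and 411.8. In the untreated series it read 488.5, 594.8 and 557.7. Both construct series therefore began above the untreated series and ended below it, and the untreated series was lowest at its start. Over the 3 series the change was -0.48 ± 0.21 at 24 h (limma, adjusted p = 0.139) and -0.42 at 48 h (adjusted p = 0.25). Without the untreated 0 h array both passed the test, at -0.83 (adjusted p = 0.00871) and -0.76 (adjusted p = 0.0246). Of the other probe sets, 207626_s_at changed by -0.73 ± 0.96 at 24 h (adjusted p = 0.702) and 230658_at was too dim. It is encoded at chr8:17494069-17570566.

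SLC38A2 (SNAT2), a sodium-coupled carrier of glutamine, alanine and other small neutral amino acids, was flat at 24 h and rose between 24 and 48 h. Its brightest probe set, 222982_x_at, read 8659, 8687 and 13272 at 0, 24 and 48 h in the RE-EX1 series. It read 8371, 8995 and 15231 in the HZ4 series and 9089, 7870.4 and 15725 in the untreated series. Each 48 h array lay above all 6 earlier arrays. The change was -0.03 ± 0.15 at 24 h (limma, adjusted p = 0.918), 0.76 at 48 h over 0 h, or 1.69-fold (adjusted p = 0.00501; 0.00545 without the HZ4 24 h array), and 0.79 at 48 h over 24 h, or 1.73-fold (adjusted p = 0.00643). Within a series, the step from 24 to 48 h was 0.61, 0.76 and 1.00 on the log2 scale in RE-EX1, HZ4 and untreated cells. Among the 9 genes SLC38A2 was the only one whose 48 h arrays all lay above its 24 h arrays, as 10.3% of all genes did.

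All 3 probe sets of SLC38A2 rose from 24 to 48 h in each series. In the HZ4 series 220924_s_at and 218041_x_at already read higher at 24 h than at 0 h, by 0.39 and 0.45 on the log2 scale. The set 220924_s_at read 7059, 6948 and 12410 in the RE-EX1 series, 6162, 8090.1 and 13750.1 in the HZ4 series and 6935, 6507 and 12082 in the untreated series. The set 218041_x_at read 6457, 6407 and 11606, then 5785, 7886 and 11911, then 6359, 6319 and 11558, in the same order. In a fit over 26480 probe sets each of the 3 was called at 48 h over 0 h, with changes of 0.76 to 0.92, and at 48 h over 24 h, with changes of 0.77 to 0.83 (limma). Over the 9 arrays their pairwise correlations were 0.96 to 0.99, and they read the same transcript. Their suffixes mark probes that may also bind other transcripts. The 48 h over 24 h call was kept without the HZ4 24 h array (0.83, adjusted p = 0.028), and was lost without the HZ4 48 h (adjusted p = 0.0833), untreated 24 h (0.066) or untreated 48 h (0.0571) array. The 48 h over 0 h call was lost without the HZ4 48 h array (0.74, adjusted p = 0.0511).

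SLC38A1 (SNAT1), a related glutamine carrier that is common in neurons, lies 89144 bases from SLC38A2 on chromosome 12 (chr12:46183063-46269043 and chr12:46358188-46372773) and was not called at any time. Its brightest probe set, 218237_s_at, read 2516, 2276 and 3064 at 0, 24 and 48 h in the RE-EX1 series. It read 2675, 3133 and 3432 in the HZ4 series and 3272, 2792 and 3276 in the untreated series. The groups overlapped at every time. The change was -0.05 ± 0.14 at 24 h (limma, adjusted p = 0.863), 0.22 at 48 h over 0 h (adjusted p = 0.389) and 0.26 at 48 h over 24 h (adjusted p = 0.336). A second set, 224579_at, read lower at 24 h, at -0.34 ± 0.15 (adjusted p = 0.146).

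SLC1A5 (ASCT2), a sodium-dependent exchanger that brings in glutamine, read lower at later times, but not past the test. Its signals were 624.2, 688.6 and 551.8 at 0, 24 and 48 h in the RE-EX1 series, 902.1, 435 and 476 in the HZ4 series and 779.9, 714.8 and 596.4 in the untreated series. All 48 h arrays lay below all 0 h arrays, as they did in 14.2% of all genes. The HZ4 series had both the highest value, at 0 h, and the lowest, at 24 h. The change was -0.35 ± 0.19 at 24 h (limma, adjusted p = 0.261; -0.10 without the HZ4 24 h array) and -0.50 at 48 h (adjusted p = 0.127). The gene lies at chr19:46774883-46788594 and is read by 208916_at.

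SLC1A4 (ASCT1), which exchanges alanine, serine and cysteine, has 5 probe sets that differed from each other over the single arrays. The brightest, 212811_x_at, read 121.7, 141.3 and 125.3 in the RE-EX1 series, 72.9, 154.3 and 132.1 in the HZ4 series and 86.1, 113.4 and 73.8 in the untreated series. Its change was 0.57 ± 0.30 at 24 h (limma, adjusted p = 0.239) and 0.23 at 48 h (adjusted p = 0.716). Pairwise correlations of the 5 sets over the 9 arrays ran from -0.33 to 0.7. Over the 3 series, however, all 5 had the same sign in each step, with none called. Their changes were 0.26 to 1.42 at 24 h over 0 h and -0.34 to -1.41 at 48 h over 24 h. At 48 h over 0 h the signs differed, from -0.47 to 0.97. Its locus is chr2:64988479-65023865.

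SLC6A9 (GLYT1), the glycine carrier of glia and some neurons, was near the bottom of the scale. Its only probe set, 207043_s_at, read 3.8, 2.65 and 8.94 in the RE-EX1 series, 26.8, 11.1 and 11.5 in the HZ4 series and 9.73, 6.62 and 6.05 in the untreated series. Of the 9 values, 4 were at or below the floor of 8.266, and no test was made. Its locus is chr1:43996483-44031462.

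**Figure D3:**
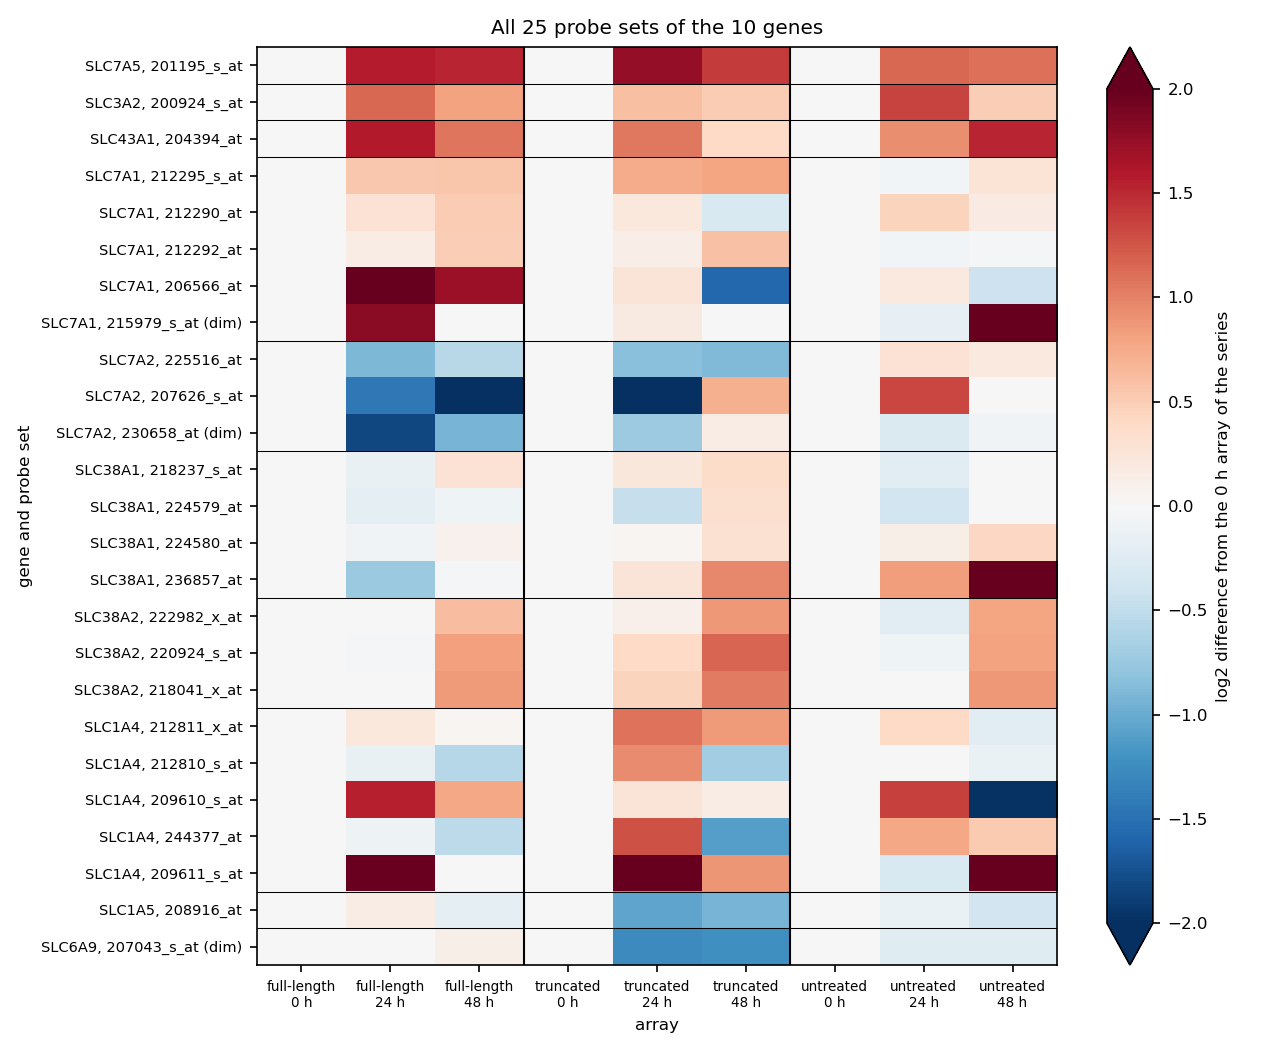
Log2 difference of each array from the 0 h array of its series (colour) for all 25 probe sets (rows, grouped by gene) on the 9 arrays (columns); 3 sets below the filter are marked dim, and colours end at 2. The 3 rows of SLC38A2 darken together at 48 h in each series, while the rows of SLC7A1 and SLC1A4 differ within a gene.

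Among the 22 probe sets of these genes that passed the filter, 2 rose at 24 h (13.1% of all probe sets were called, 6.62% higher and 6.47% lower). At 48 h over 0 h 6 rose (6.22% called, 3.26% higher and 2.96% lower), and at 48 h over 24 h 3 rose (2.63% called, 1.17% higher and 1.46% lower). At none of these times did one fall. The 3 of SLC38A2 account for the difference between genes and probe sets at 48 h.

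The study set out to compare the constructs, and the next comparison asked whether a series with a construct changed from its 0 h array by another amount than the untreated series. Of the 9 transporter genes 0 were called for full-length NRSF against untreated, for truncated NRSF against untreated, or between both constructs. Over all genes 0.00725%, 0.0362% and 0.0145% were called in the same order (limma, Benjamini-Hochberg). At an unadjusted p under 0.05 (limma) there were 1, 3 and 1 of the 9, and 578, 1055 and 853 of all 13799 genes. This fit has 2 residual degrees of freedom, which are differences between 24 and 48 h and not replicate cultures, so a gene that was not called is not shown to respond alike.

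SLC7A2 had the largest such difference from untreated in both construct series. Net of the untreated series it was -0.96 ± 0.34 on the log2 scale with full-length NRSF (limma, unadjusted p = 0.0127, adjusted p = 1) and -1.10 ± 0.34 with truncated NRSF (unadjusted p = 0.00551, adjusted p = 0.357). The difference between the constructs was 0.14 ± 0.34 (adjusted p = 0.979). Without the HZ4 24 h array the truncated value was -1.19 (adjusted p = 0.289). In single series, SLC7A2 changed at 24 and 48 h by -0.89 and -0.56 with RE-EX1. With HZ4 the values were -0.84 and -0.89, and without a construct 0.28 and 0.19.

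SLC1A5 had the largest difference between the constructs among the 9 genes, and it was not called. Its change was 0.14 at 24 h and -0.18 at 48 h with full-length NRSF, and -1.05 and -0.92 with truncated NRSF, beside -0.13 and -0.39 in untreated cells. The difference of full-length from truncated was 0.97 ± 0.33 (limma, unadjusted p = 0.0102, adjusted p = 0.59; 0.76 without the HZ4 24 h array). Truncated from untreated it was -0.73 ± 0.33 (unadjusted p = 0.0433, adjusted p = 0.624). The HZ4 0 h array, from which its changes are counted, held the highest SLC1A5 signal of the 9.

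For SLC7A1 the same difference was 0.44 ± 0.29 with full-length NRSF (limma, adjusted p = 1) and 0.66 ± 0.29 with truncated NRSF (unadjusted p = 0.0387, adjusted p = 0.612). The truncated value turned to -0.18 with the mean of all SLC7A1 probe sets. For SLC7A5 it was 0.41 ± 0.37 and 0.45 ± 0.37, with -0.04 between the constructs, and the untreated cells alone showed increases of 1.15 at 24 h and 1.11 at 48 h. For SLC3A2 it was 0.05 ± 0.35 and -0.37 ± 0.35, and the largest 24 h step of the 3 series was in untreated cells, at 1.35. For SLC38A2 it was 0.02 ± 0.34 and 0.19 ± 0.34. For SLC1A4 and SLC43A1 the standard errors were larger, at 0.64 and 0.96, so differences above 2-fold could also go uncalled. The limit is not confined to these genes, since SLC7A2 at -1.10 ± 0.34 with truncated NRSF was not called either (limma, adjusted p = 0.357).

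**Figure D4:**
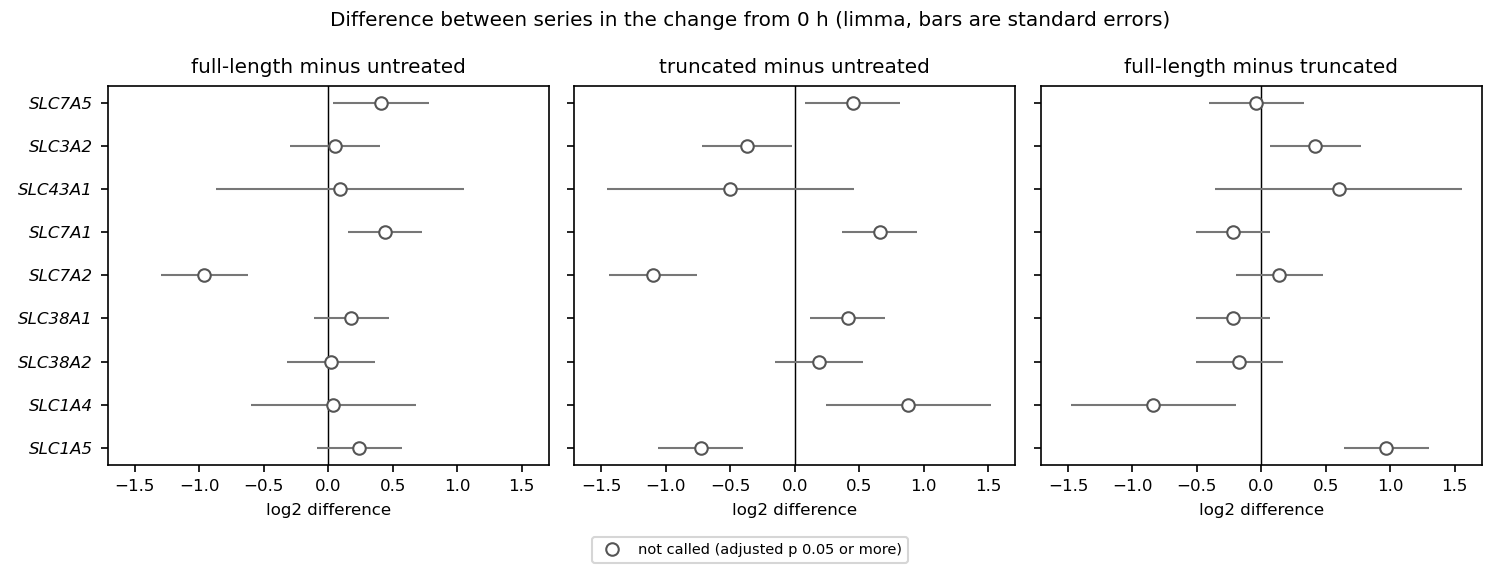
Difference between series in the log2 change from 0 h, with its standard error, for the 9 genes kept; the 3 panels are full-length minus untreated, truncated minus untreated and full-length minus truncated. No gene was called; SLC7A2 lies lowest in the first 2 panels (-0.96 and -1.10) and SLC1A5 highest in the third (0.97).

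With 1 array per point, a 2-fold difference from the 0 h array of the same series has no replicate check. At 24 h in RE-EX1 cells 3 of the 9 genes kept were at least 2-fold higher (9.67% of all genes) and 0 lower (9.94%). In HZ4 cells 3 were higher (15.3%) and 1 lower (11.8%), and in untreated cells 2 higher (8.81%) and 0 lower (9.82%). At 48 h the counts in RE-EX1 cells were 2 higher (7.99%) and 0 lower (10.6%). In HZ4 cells they were 1 higher (9.67%) and 0 lower (9.46%), and in untreated cells 2 higher (8.44%) and 0 lower (9.29%). Between pairs of 0 h arrays 13.2% to 14.9% of all genes differed 2-fold, with both directions counted together. The shares at 24 and 48 h are for a single direction each, so they are not on the same footing.

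The genes whose signals ran most like each member over the 9 arrays were found among kept genes with a range of at least 1 on the log2 scale. For SLC7A5 these were ABL2 (Pearson r = 0.99), IRS2 (0.986) and CMTR2 (0.979). For SLC3A2 they were YAF2 (0.953), EID3 (0.946) and ETS1 (0.933), and for SLC43A1 P2RX6 (0.934), NTMT1 (0.934) and ATF4 (0.933). For SLC38A2 they were BLVRA (0.942), DIO2 (0.936) and FAHD1 (0.922), and for SLC38A1 CARMN (0.937), ROR2 (0.91) and TBC1D17 (0.908). SLC7A1 ran most like ARL16 (0.953), MKRN1 (0.953) and MAGIX (0.944), and SLC7A2 like COG7 (0.913), LZTS3 (0.897) and MARK4 (0.891). SLC1A4 ran most like BLID (0.968), KCTD16 (0.964) and ZFP28 (0.962), and SLC1A5 like TMEM263 (0.951), MAP3K3 (0.945) and SHC1 (0.944). These are the extremes of many correlations over 9 arrays that share series and times, and describe these arrays only. Among the members, SLC7A5 ran with its partner SLC3A2 at r = 0.73, no closer than with SLC43A1 (0.73) or SLC7A1 (0.76), and SLC3A2 ran closest to SLC43A1 (0.78). SLC7A1 ran against SLC7A2 at -0.79 and SLC38A1 with SLC38A2 at 0.65.

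Of the other amino acid transporters, 39 genes were listed and 21 tested. Of these 2 rose and 1 fell at 24 h, which is 14.3%, where 16.2% of all genes were called. The median change was -0.07. SLC7A11 (xCT), which imports cystine in exchange for glutamate and is likewise a partner of SLC3A2, rose from 131.9, 111.8 and 214 at 0 h in the RE-EX1, HZ4 and untreated series to 627.3, 524.9 and 588.1 at 24 h. It then read 430.4, 340.7 and 463.1 at 48 h. Its change was 1.98 ± 0.20 at 24 h, or 3.94-fold (limma, adjusted p = 5.3e-06), and 1.48 at 48 h (adjusted p = 0.00027). SLC36A1, a proton-coupled carrier, rose by 0.83 at 24 h (adjusted p = 0.0487) and SLC7A8 (LAT2), another SLC3A2 partner, fell by 0.50 (adjusted p = 0.0338). SLC1A7 and SLC43A2 changed by -1.14 and 0.99 and were not called. At 48 h over 0 h SLC7A11 was the 1 gene of the 21 that was called (4.76%, where 8.38% of all genes were). With 1 array or series left out, 1 to 3 of the 21 were called at 24 h.

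Of 18 tested genes among ATF4 and its targets, 13 rose and 0 fell at 24 h, median 1.07. That is 72.2%, where 16.2% of all genes were called. This list, like the others, was chosen with earlier results of these data known. At 48 h over 0 h 7 rose, median 0.73 (38.9%, against 8.38% of all genes). Between 24 and 48 h 5 fell, with a median of -0.55 (27.8%, against 3.5% of all genes). ATF3 rose by 3.36 ± 0.36 at 24 h (limma, adjusted p = 1.2e-05), PPP1R15A, which helps restart translation, by 2.54 ± 0.17 (adjusted p = 9.6e-08) and DDIT3 (CHOP) by 1.95 ± 0.17 (adjusted p = 1.6e-06). VLDLR changed by 2 ± 0.77 and was not called (adjusted p = 0.094). STC2, SESN2, NUPR1, CEBPG, TRIB3, ATF5, ATF4, DDIT4, ASNS and CEBPB also rose at 24 h, by 0.55 to 1.89. In the RE-EX1, HZ4 and untreated series ATF4 itself went from 1241, 2190.3 and 1712 (0 h) to 2457, 3629 and 3314 (24 h). With 1 array or series left out, 10 to 13 of the 18 were called at 24 h. The count for 48 h over 0 h was then 3 to 8: 4 without the untreated 48 h array and 4 without the RE-EX1 series and 3 without the untreated series. The 5 calls between 24 and 48 h became 0 to 6: 1 to 3 without any one of the 24 h or 48 h arrays, 0 without the RE-EX1 series, 3 and 2 without the HZ4 and untreated series, and 6 without the HZ4 0 h array. They were also 0 without the filter on dim genes. Without the variance trend the 7 calls at 48 h over 0 h and these 5 were 0.

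ASNS, which makes asparagine, and the transporter SLC7A5 are both textbook ATF4 targets. ASNS rose by 0.76 ± 0.14 at 24 h (limma, adjusted p = 0.00172) and fell by 0.64 from 24 to 48 h (adjusted p = 0.0196), to 0.12 over its start (adjusted p = 0.677). SLC7A5 was still 1.34 over its start at 48 h. Whether the 2 genes differ in that step was not tested.

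Pathways that use what the transporters carry had shares of called genes near the 16.2% of all genes at 24 h: 16.7% in arginine and polyamine metabolism and 20% each in glutamine and glutamate metabolism and in serine, glycine and proline synthesis. In arginine and polyamine metabolism, 1 of 12 tested genes rose and 1 fell at 24 h. ODC1, which turns ornithine into putrescine, rose from 1346, 1364 and 1403 at 0 h to 6186, 7001 and 6368 at 24 h in the RE-EX1, HZ4 and untreated series, a change of 2.25 ± 0.14 (limma, adjusted p = 4.1e-08). SRM, spermidine synthase, fell by 0.55 (adjusted p = 0.0147). ASL, argininosuccinate lyase, and SAT1, a polyamine acetyltransferase, changed by -0.59 and 0.55 and were not called (adjusted p = 0.0898 and 0.0674). ARG2, the mitochondrial arginase, was chosen after its values were seen: it rose between 24 and 48 h by 1.30 ± 0.19 (limma, adjusted p = 0.00115). SLC38A2 rose in the same interval, and a link was not tested. In that interval 2 of the 12 genes rose and 1 fell, which is 25%, where 3.5% of all genes were called. AMD1, also chosen after its values were seen, changed by 0.69 (limma, adjusted p = 0.0189). ODC1 went the other way, at -0.90 (limma, adjusted p = 0.00118).

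In glutamine and glutamate metabolism 1 of 10 genes rose and 1 fell at 24 h. ASNS, which is also in the ATF4 list, was the gene that rose. CAD, which starts pyrimidine synthesis from glutamine, fell by 0.93 (limma, adjusted p = 0.00326). GPT, an alanine aminotransferase, and CTPS1, which makes CTP, changed by -0.41 and -0.19 and were not called. In serine, glycine and proline synthesis 1 of 10 rose, PSAT1 by 0.93 (adjusted p = 0.00118), and 1 fell, MTHFD1 by 0.48 (adjusted p = 0.0421). PHGDH, the first enzyme of serine synthesis, and SHMT1, which makes glycine from serine, changed by 0.80 and 0.50 and were not called (adjusted p = 0.0717 and 0.76). The median change at 24 h was -0.18, -0.01 and -0.23 in these 3 lists. With 1 array or series left out, 1 to 3, 2 and 1 to 3 of their genes were called at 24 h.

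**Figure D5:**
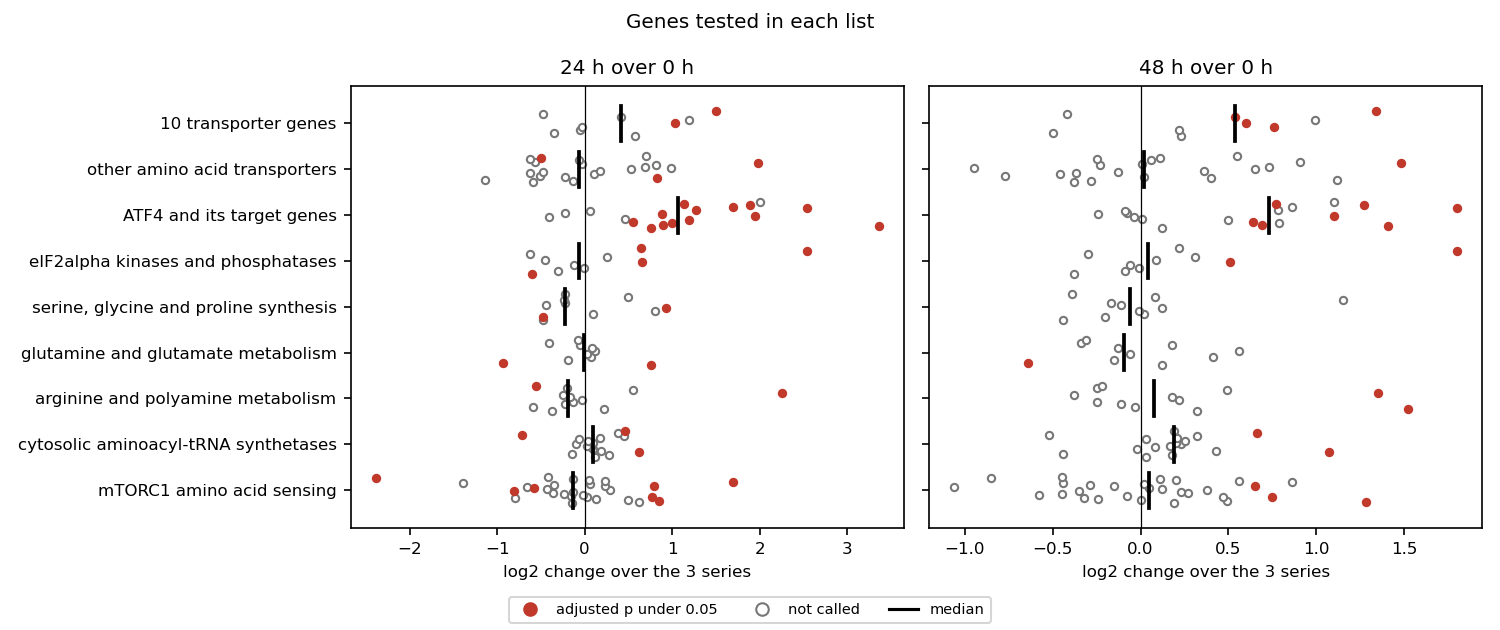
Log2 change over the 3 series at 24 h and at 48 h over 0 h, 1 point per tested gene, for the transporter genes and the 8 lists; filled points have an adjusted p under 0.05 and black bars are medians. The ATF4 list is shifted to the right (medians 1.07 and 0.73), and the other transporters centre near 0 (medians -0.07 and 0.02).

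Markers of other cell types were read on the same arrays. Of the 5 epithelial markers with a probe set none was kept, and their summed signal was 22.4 to 93.7. The summed signal of 4 blood cell markers was 134 to 145.3 at 0 h, 153.2 to 232.2 at 24 h and 188.5 to 234.7 at 48 h; CD3E and CD14 were too dim to be kept and PTPRC rose at 48 h by 1.05 (limma, adjusted p = 0.0345). Endothelial markers summed to 131.4 to 254.9, and those of Schwann cells and melanocytes to 129.3 to 357. The summed mesenchymal markers fell outside their 0 h range of 30561 to 36113 at 24 h (22619 to 27104), and the sympathoadrenal ones outside 4000.4 to 4442 (2750.2 to 3440.5). Such sums follow the brightest genes, and single markers went both ways: of the 10 mesenchymal genes 5 fell at 24 h (FN1, COL3A1, PRRX1, COL1A1 and TWIST1) and 2 rose (FOSL1 by 1.56 and SNAI2 by 1.26; limma, adjusted p = 5.8e-05 and 2.5e-05), while VIM was not called. Of 9 sympathoadrenal genes tested, RET and DDC fell (by 1.96 and 0.93) and 0 rose. These genes were chosen from the marker lists after their values were seen. The share called at 24 h was 70% of the mesenchymal and 22.2% of the sympathoadrenal genes tested, where 16.2% of all genes were called. The mesenchymal, sympathoadrenal and blood sums moved with time, as did the transporter genes called, and their part in those changes was not tested. In bulk RNA, fewer cells of a type and less RNA per cell cannot be told apart.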

How the data were processed

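Total RNA extracted with Trizol was labelled with biotin and hybridised to 9 Affymetrix arrays, per the labels' protocols. The authors deposited 1 linear intensity for each probe set on each array, computed in GCOS according to the submitters' processing notes, which name no version. The mean signal without the extreme values was 149.98 on every array, and this scaling was kept. Of 54675 probe sets 62 were controls; 41091 named 1 gene in the platform annotation and were used, 1801 named several and 11721 were not listed.

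A floor at the 25th percentile (signal 8.266) was set and log2 taken. The probe set with the highest mean stood for a gene, and genes with a mean log2 above 4.2 (the 40th percentile) were kept. Tests used limma 3.58.1 in R 4.3.3 (lmFit and eBayes, with the variance allowed to follow the mean, two-sided p, adjusted by Benjamini-Hochberg). The time model held series and time (4 residual degrees of freedom). For the constructs, terms for RE-EX1 and HZ4 at the later times were added (2 residual degrees of freedom). Changes and standard errors are on the log2 scale. The number of arrays limits the precision. Both models were also run on simulated data with independent noise on each array. Those data held no series offsets and no shared array effects, so the run cannot speak to those limits here.

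The text names the 10 transporter genes, the 4 tested genes of each related list with the largest change at 24 h and those called at 24 h, the 3 genes most like each member, and REST; others are said to be chosen after their values were seen. The members, lists and tests were chosen with earlier results of these data known. Alternatives were quantile normalization, other floors and filters, no variance trend, other probe sets for a gene, no series term, and leaving out each array or series.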

Additional observations from a re-analysis of the deposited data

Results flagged for a closer look

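SLC7A2 moved in opposite directions in the series with and without a construct. Relative to its own 0 h array, the untreated series was higher by 0.28 at 24 h and 0.19 at 48 h on the log2 scale. The full-length series changed by -0.89 and -0.56 and the truncated series by -0.84 and -0.89. The difference itself was tested in the limma model of the constructs and was not called (adjusted p = 1 for full-length and 0.357 for truncated NRSF against untreated). Each value rests on 1 array per time, and the untreated 0 h array had a lower SLC7A2 signal (488.5) than the other 0 h arrays (736.1 and 762.7).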

How the results depend on the processing

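SLC7A5 was called at 24 h under all 21 alternatives (1.36 to 1.67) and at 48 h under 20 of 21, SLC3A2 at 24 h under 20 of 21 (0.84 to 1.25) and at 48 h under 8, SLC7A1 at 48 h under 7, and SLC38A2 under 16 at 48 h over 0 h and 14 at 48 h over 24 h. The counts of transporter genes called in limma, 2, 4 and 1 in the 3 time comparisons, became 1, 0 and 0 without the variance trend (5 and 1 of 9 at an unadjusted p under 0.05 in the last 2). Without the filter on dim genes the counts at 48 h over 0 h and over 24 h became 1 and 0 (2 at an unadjusted p under 0.05 in the latter). At 48 h over 0 h the count became 2 with a gene's probe sets averaged and 2 without the series term. Leaving out 1 array or series gave 2 to 4, 1 to 4 and 0 to 1. The counts of probe sets, 2, 6 and 3, became 1, 0 and 0 without the trend (8 and 3 at an unadjusted p under 0.05 in the last 2), and 1 and 0 at 48 h over 0 h and over 24 h without the filter (5 in the latter). With quantile normalization the count at 48 h over 24 h became 1. Leaving out 1 array gave 2 to 4, 3 to 6 and 0 to 3. The share of all genes at an unadjusted p under 0.05 was not counted under these alternatives, so those counts have no background beside them. The causes were not tested. The construct comparisons stayed at 0 calls under 15, 15 and 14 alternatives.

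Changes that were not called turned sign in places. With quantile normalization SLC38A2 at 24 h was 0.14. With probe sets averaged it was 0.07, SLC7A1 at 48 h over 24 h was -0.10, SLC38A1 was -0.51 and -0.14 for full-length and truncated NRSF against untreated, SLC7A1 was -0.18 for truncated against untreated and 0.71 between constructs, and SLC7A2 was -0.80 between constructs. Without _s_at and _x_at sets SLC1A4 at 48 h was -0.37, SLC7A1 at 48 h over 24 h was -0.19, SLC1A4 was -0.96 and -0.57 for full-length and truncated against untreated, and SLC7A1 was -0.35 for truncated against untreated and 0.45 between constructs. Leaving out 1 array or series gave, at 24 h, -0.19 to 0.05 for SLC38A1, -0.10 to 0.06 for SLC38A2 and -0.59 to 0.01 for SLC1A5; at 48 h over 0 h, -0.09 to 0.45 for SLC1A4; and at 48 h over 24 h, -0.59 to 0.07 for SLC43A1, -0.03 to 0.23 for SLC7A1, -0.11 to 0.29 for SLC7A2 and -0.40 to 0.01 for SLC1A5. For full-length against untreated it gave -0.27 to 0.37 for SLC3A2, -0.50 to 0.68 for SLC43A1, -0.14 to 0.18 for SLC38A2 and -0.17 to 0.25 for SLC1A4. It gave -1.10 to 0.09 for SLC43A1 for truncated against untreated, and -0.20 to 0.12 for SLC7A5 and -0.07 to 0.34 for SLC7A2 between constructs.

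The labels give no replicate numbers, so no block by replicate was fitted; the term for series already sets the times of a series against each other. Without it the 48 h changes of SLC3A2 and SLC7A1 were no longer called (adjusted p = 0.0926 and 0.0803). Background correction and the summary of probes could not be varied, since only summarised signals were used here. The 3 probe sets below the filter, among them the only set of SLC6A9, have no usable change.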

Other observations

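Among 29 tested genes of amino acid sensing by mTORC1, the kinase complex that couples amino acid supply to growth, 4 rose and 3 fell at 24 h, with a median change of -0.13. The share called was 24.1%, where 16.2% of all genes were called. That share counts SESN2, which is also in the ATF4 list. SESN2, a leucine sensor that restrains mTORC1, rose by 1.69 ± 0.28 (limma, adjusted p = 0.00067), and FLCN, RRAGC and LAMTOR3, which act at the lysosome, rose by 0.85, 0.79 and 0.77 (adjusted p = 0.0202, 0.00093 and 0.00145). WDR24 fell by 2.38 ± 0.60 (limma, adjusted p = 0.0116). It read 82.2, 79.5 and 94.8 at 0 h in the RE-EX1, HZ4 and untreated series, and 5.28, 9.15 and 58.4 at 24 h. The RE-EX1 and HZ4 values at 24 h lay below or near the floor of 8.266, so the size of this fall depends on the floor. NPRL3 fell by 0.81 and RRAGA by 0.58 (limma, adjusted p = 0.0423 and 0.0299). RRAGA and RRAGC, which encode partners of 1 heterodimer, thus moved in opposite directions. SESN1, a relative of SESN2, changed by -1.39 ± 0.56 and was not called (adjusted p = 0.11). With 1 array or series left out, 3 to 7 of the 29 were called.

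Of 17 cytosolic aminoacyl-tRNA synthetases, which load tRNAs with amino acids, FARSA and YARS1 rose at 24 h by 0.62 and 0.46 and VARS1 fell by 0.72 (limma, adjusted p = 0.00749, 0.0308 and 0.0485). The share of synthetases called was 17.6%, near the 16.2% of all genes. TARS1 changed by 0.45 and was not called (limma, adjusted p = 0.0581). Of 10 genes around eIF2alpha, the translation factor whose phosphorylation leads to ATF4 synthesis, 3 rose and 1 fell at 24 h: PPP1R15A, EIF2S1 and PPP1R15B rose by 2.54, 0.66 and 0.64, and the kinase gene EIF2AK1 fell by 0.60 (adjusted p = 9.6e-08, 0.00255, 0.00616 and 0.00662). The share of the eIF2alpha genes called was 40%, against 16.2% of all genes. That share counts PPP1R15A, which is also in the ATF4 list. PPP1CA, a phosphatase subunit, changed by -0.62 and was not called (limma, adjusted p = 0.0844). With 1 array or series left out, 1 to 3 of the synthetases and 3 to 5 of the eIF2alpha genes were called at 24 h.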
